A study of Mus musculus with 5 samples.

Results

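Potassium channel genes were examined in the neonatal mouse heart with and without Charme, a long noncoding RNA of muscle. The members are all genes whose symbol starts with Kcn, without antisense and overlapping transcripts and without Kcnq1ot1, that had at least 10 counts in at least 2 of the 5 RNA-seq pools. Of 99 such symbols in the deposited counts 5 were antisense or overlapping transcripts, 94 were channel genes, and 45 of these met the count rule, among 14880 genes tested. Of the 45, 44 are reported and enter the counts of members given here. Littermate hearts (C57BL6/J, postnatal day 2) were combined within each genotype before polyA RNA was sequenced, as 3 CharmeWT pools of 9 hearts and 2 CharmeKO pools of 3 hearts. The CharmeKO allele carries a PolyA signal inserted into the locus in every cell, and no other allele or treatment is named for either group. Genotype and pool size cannot be told apart, and p-values measure the spread between pools of littermates.

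Potassium channels carry the outward currents that end the cardiac action potential and hold the resting potential of the muscle cell. Their pores are built from voltage-gated subunits (the Kv, KCNQ and ERG types), inward rectifiers, tandem-pore (K2P) subunits or calcium-activated subunits, and small auxiliary subunits such as the Kcne and Kcnip proteins set how the pores open and reach the membrane. In rodent hearts the set of channels is rebuilt around birth, when the long fetal action potential shortens.

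Gene counts summed to 16721055 to 21646378 per pool, and members took 0.137% to 0.149% of them in CharmeWT pools, 0.0826% in CharmeKO pool 1 and 0.113% in CharmeKO pool 2. Charme itself had 810, 183 and 276 counts in CharmeWT pools 1 to 3 and 57 and 79 counts in CharmeKO pools 1 and 2. The 12 cardiomyocyte marker genes were all detected, and their summed level was 45100 to 57590 CPM (counts scaled to library size, after TMM normalization) in CharmeWT and 46710 to 49900 CPM in CharmeKO pools. Of the 12, 7 were lower in CharmeKO, 5 were higher and 0 were called, with a median log2 fold change of -0.08. Myh6, Actn2, Nkx2-5 and Gata4 lay below every CharmeWT pool in both CharmeKO pools (log2 fold change -0.65, -0.29, -0.43 and -0.35). The pools of the 5 higher genes overlapped. Of 8 ventricular genes 6 were lower, 2 higher and 0 called. Both CharmeKO pools stood apart from the rest. Mitochondrial genes took 21.1% of the counts of CharmeKO pool 1 against 9.68% to 11.1% in the other pools, and its TMM factor was 0.845 against 1.02 to 1.09. A list of 13 salivary gland genes summed to 25570 CPM in CharmeKO pool 2, 348 CPM in CharmeKO pool 1 and at most 3.84 CPM in CharmeWT pools. Erythroid markers summed to 876 to 1261 CPM in CharmeWT and 2304 and 1627 CPM in CharmeKO pools 1 and 2, with 8 of 8 tested genes higher and 3 called. CharmeKO pool 2 was also highest for Schwann and neural markers (35.9 CPM against 13.4 to 18.8 in the other pools) and macrophage markers (211 against 102 to 148 CPM). The summed levels of these 2 lists and of endothelial, fibroblast, smooth muscle and pericyte, ventricular, skeletal muscle, and T cell and thymus markers overlapped between the genotypes. Of these lists, 9 of 9 tested skeletal muscle genes were higher and 3 of them were called, and the Schwann and neural, macrophage and smooth muscle lists held 1 called gene each. The skeletal muscle sum was mostly Ckm (2956 to 4108 CPM per pool). The called genes of that list, Myh8, Mylpf and Tnnc2, did not overlap between the genotypes. The part of these lists in the values of the channel genes was not tested.

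Levels between genes were compared as FPKM (CPM per kilobase of exon), which corrects for length. Mean FPKM over the 5 pools ran from 70.9 for Kcng2 down to 0.0671 for Kcnh7, and 23 of the 44 members had a mean FPKM of 1 or more in either genotype. A group of 12 members at a mean FPKM of at least 5 made up 89.2% to 93.3% of the summed FPKM of all members in each pool. In order of level these were Kcng2, Kcne1, Kcnh2, Kcnk3, Kcnj11, Kcnj5, Kcnip2, Kcnq1, Kcnj8, Kcnj12, Kcna5 and Kcnj2. They hold pore genes of the delayed rectifier, ATP-sensitive, acetylcholine-gated and resting potassium currents. Kcnj3 and Kcnj4, further pores of the acetylcholine-gated and resting currents, were at lower levels (mean FPKM 4.14 and 1.23). The summed FPKM of all 44 members was 375, 359 and 363 in CharmeWT pools 1 to 3 and 269.5 and 292.5 in CharmeKO pools 1 and 2, so that both CharmeKO pools lay below every CharmeWT pool.

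**Figure D1:**
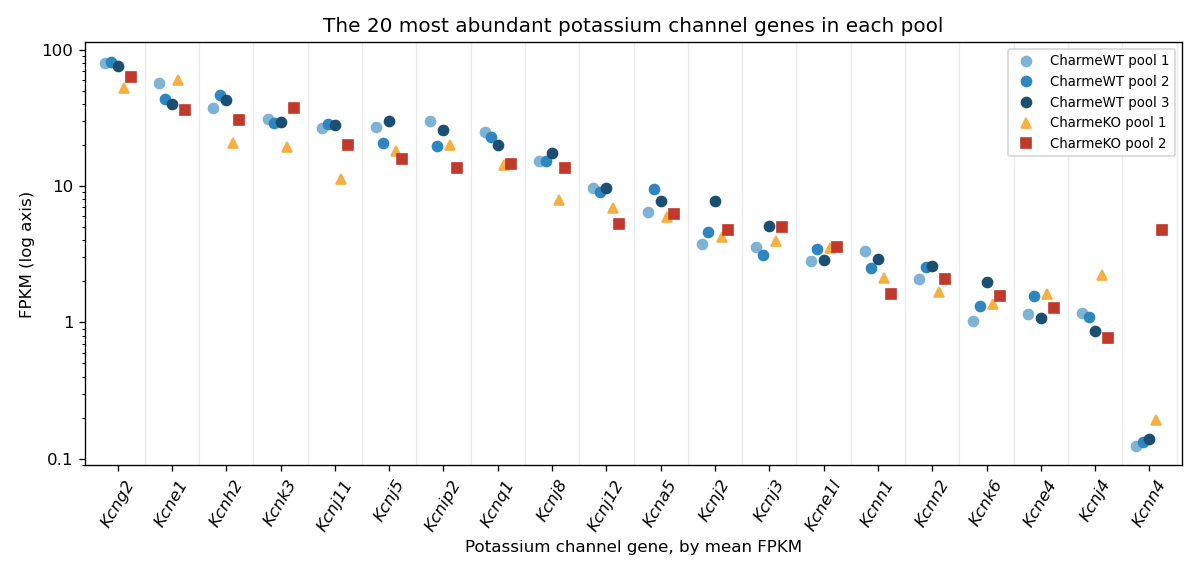
FPKM (log axis) of the 20 potassium channel genes with the highest mean level, with 1 point per pool: circles for the 3 CharmeWT pools, a triangle for CharmeKO pool 1 and a square for CharmeKO pool 2. From Kcng2 to Kcnj12 the CharmeKO points lie below all CharmeWT points except for Kcne1, Kcnk3 and Kcnip2, where the groups overlap.

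A gene was called when its adjusted p was under 0.1 and either genotype had a mean FPKM of 1 or more. By this rule 1 member, Kcnn4, was called higher in CharmeKO, through CharmeKO pool 2. By edgeR's quasi-likelihood test 0 members were called lower. Over all genes tested the same rule called 0.524% lower and 1.53% higher. At an unadjusted p under 0.05, 10 members (22.7%) were lower, against 8.01% of all genes tested, and 3 (6.82%) were higher, against 10.6% of all genes tested. The 10 were Kcnq1, Kcnj11, Kcnh2, Kcnj12, Kcnj5, Kcng2, Kcnn1, Kcnip2, Kcnj8 and Kcnn3, and the 3 were Kcnn4, Kcnh7 and Kcne3. Leaving out CharmeWT pool 1 brought the 10 to 6 and the 3 to 1, and leaving out CharmeWT pool 3 brought the 10 to 5. The shares of all genes without these pools are not given here, so that these falls cannot be set against a background. The likelihood ratio test of edgeR, which the study's methods name, called 3 members lower (Kcnj11, Kcnq1 and Kcnh2) and called 2.35% of all genes lower. DESeq2 called these 3 with Kcnj5 and Kcnj12. The share of all genes that DESeq2 called lower is not given here, so that its count cannot be set against a background. With a correction for length and GC content 7 members were lower at an unadjusted p under 0.05, against 9.03% of all genes tested, and Kcng2, Kcnj12, Kcnip2 and Kcnn1 were no longer among them while Kcnab1 was added. The same correction called Kcnj11 lower, with 0.847% of all genes tested. The 10 had a median GC content of 56.7%, against 50.2% over all genes tested. Without CharmeKO pool 2 the test called 6 members lower (13.6%), against 15.6% of all genes tested, so that calls made without that pool are near their background. Without CharmeKO pool 1 it called 2 members (Kcnip2 and Kcnj12) and 1.27% of all genes tested lower.

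Both CharmeKO pools lay below every CharmeWT pool for 16 members (36.4%), against 18.2% of all genes tested, and above every CharmeWT pool for 4 members (9.09%), against 17.8%. The median log2 fold change, CharmeKO over CharmeWT, was -0.24 over the 44 members and 0.02 over all genes tested. Without CharmeWT pool 1 the median over the members was -0.40, and without CharmeKO pool 2 it was -0.46. Split by level, the 12 at a mean FPKM of at least 5 had a median log2 fold change of -0.58 (range -0.83 to 0.03), 11 of them were lower in CharmeKO and 8 reached an unadjusted p under 0.05. After correction for length and GC content that median was -0.45, against -0.03 over all genes tested. The other 32 had a median of 0.0001, and 16 were lower. Over the 6486 genes tested with a mean FPKM of at least 5 the median was 0.02, and 10.4% were lower at an unadjusted p under 0.05. In bulk tissue fewer cells of a type and less RNA per cell cannot be told apart.

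**Figure D2:**
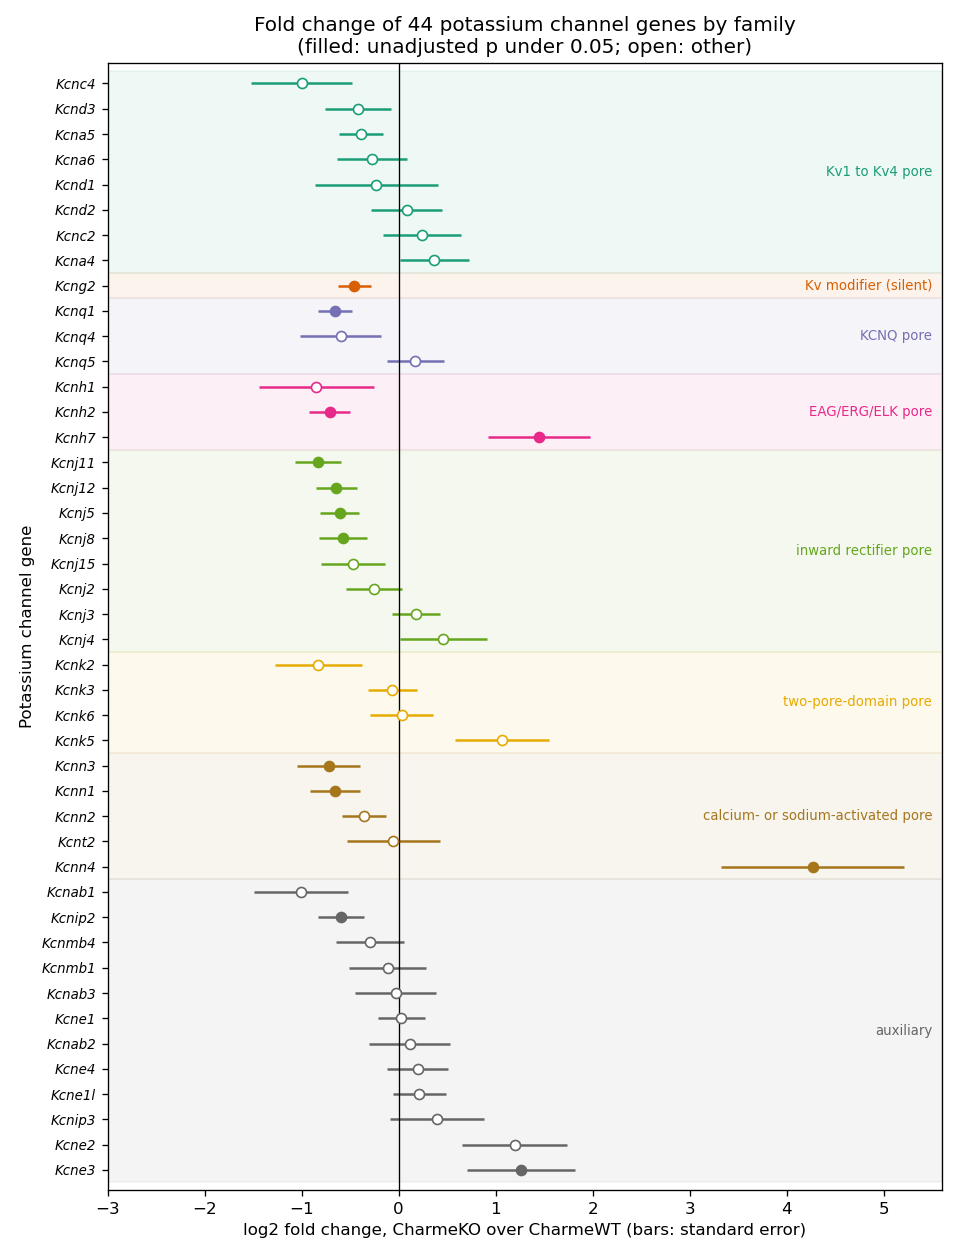
Log2 fold change, CharmeKO over CharmeWT, of the 44 potassium channel genes, grouped by family, with bars of 1 standard error. Filled points have an unadjusted p under 0.05. In the inward rectifier family 4 of 8 genes are filled and all 4 lie below 0, while Kcnn4 stands far to the right at 4.27.

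Of the Kv1 to Kv4 pore genes 8 are reported, and none passed the test. Kcna5 (Kv1.5), a pore of the slowly inactivating delayed rectifier current of the mouse, was at 6.50, 9.59 and 7.83 FPKM in CharmeWT and 5.89 and 6.27 FPKM in CharmeKO pools. Its groups did not overlap, but its CharmeWT pools spread widely, and it did not pass the quasi-likelihood test of edgeR (log2 fold change -0.39, standard error (SE) 0.229, adjusted p = 0.378).

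Kcng2, the most abundant member, encodes Kv6.2, a silent subunit that makes no channel alone and modifies other Kv pores. It was at 80.3, 81.9 and 76.4 FPKM in CharmeWT and 52.8 and 63.1 FPKM in CharmeKO pools. The CharmeWT pools lay close together and above both CharmeKO pools, with a log2 fold change of -0.46 (SE 0.173, unadjusted p = 0.0249, adjusted p = 0.216). After correction for length and GC content it was -0.15 (adjusted p = 0.668), and without CharmeKO pool 2 it was -0.60. No other of the 10 silent Kv genes was a member. Amigo1, a membrane protein that binds voltage-gated potassium channels, was at 3.02, 3.14 and 3.57 FPKM in CharmeWT and 1.78 and 2.15 FPKM in CharmeKO pools. Its groups did not overlap, but its adjusted p of 0.164 missed the threshold (log2 fold change -0.72, SE 0.226).

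The genes of the transient outward current were lowly expressed apart from Kcnip2, which encodes KChIP2, the subunit that brings Kv4 pores to the membrane. Kcnip2 was at 30.1, 19.85 and 25.8 FPKM in CharmeWT and 19.95 and 13.6 FPKM in CharmeKO pools. CharmeKO pool 1 overlapped the lowest CharmeWT pool, and the log2 fold change was -0.59 (SE 0.237, adjusted p = 0.235). It ran from -0.89 without CharmeKO pool 1 to -0.35 without CharmeKO pool 2. The Kv4 pores Kcnd2 (0.697 to 1.36 FPKM) and Kcnd3 (0.214 to 0.359 FPKM) had log2 fold changes of 0.08 and -0.42, and Kcna4 (Kv1.4), the pore of the slow transient current, was at 0.613 to 1.47 FPKM with a log2 fold change of 0.37. None of these 3 passed the test, and the sign for Kcnd2 turned with the length and GC correction (-0.17) and with the replicate block (-0.14). The sign also turned without CharmeKO pool 1, to -0.38 for Kcnd2 and -0.11 for Kcna4.

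Kcnq1 encodes the pore of the slow delayed rectifier current IKs, and Kcne1 its auxiliary subunit. Kcnq1 (ENSMUSG00000009545, chr7:143106362-143427042, plus strand) was at 24.9, 22.9 and 20.1 FPKM in CharmeWT and 14.2 and 14.5 FPKM in CharmeKO pools. The CharmeKO pools were nearly equal and both below every CharmeWT pool, and the log2 fold change of -0.65 (SE 0.177) moved only between -0.73 and -0.58 with any pool left out. Its adjusted p was 0.130 by the quasi-likelihood test, 0.0522 in the likelihood ratio test, while DESeq2 gave 0.0349. With a CharmeWT pool left out the adjusted p of the quasi-likelihood test was 0.289 to 0.409. After correction for length and GC content the log2 fold change of Kcnq1 was -0.46 (adjusted p = 0.238 by the quasi-likelihood test). Kcne1 was at 57.0, 43.7 and 39.8 FPKM in CharmeWT and 59.7 and 35.97 FPKM in CharmeKO pools. The CharmeKO pools were the highest and the lowest of the 5, and the log2 fold change was 0.03 (SE 0.245, adjusted p = 0.958). The ratio of Kcne1 to Kcnq1 FPKM, formed after the values were seen, was 2.29, 1.91 and 1.98 in CharmeWT pools and 4.20 and 2.48 in CharmeKO pools. The antisense transcript Kcnq1ot1 lies within Kcnq1 on the other strand, and the study's methods count reads by strand.

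Kcnh2 encodes ERG1, the pore of the rapid delayed rectifier current IKr. Kcnh2 (ENSMUSG00000038319, chr5:24319589-24351604, minus strand) was at 37.4, 46.2 and 42.8 FPKM in CharmeWT and 20.8 and 30.6 FPKM in CharmeKO pools. Both CharmeKO pools were below every CharmeWT pool, pool 1 the more so, with a log2 fold change of -0.71 (SE 0.211, adjusted p = 0.150, likelihood ratio test 0.0725). After correction for length and GC content it was -0.41 (adjusted p = 0.188). It was -0.46 without CharmeKO pool 1 and -1.03 without CharmeKO pool 2. Kcne2, an auxiliary subunit linked to this current, had 5, 10 and 8 counts in CharmeWT and 16 and 17 in CharmeKO pools (log2 fold change 1.196, SE 0.544, adjusted p = 0.274), without overlap between the groups at these low counts. The only other ERG-type gene with an unadjusted p under 0.05, Kcnh7, was the least abundant member, with 4 to 19 counts in CharmeWT and 18 and 45 in CharmeKO pools (log2 fold change 1.44, adjusted p = 0.204).

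Inward rectifiers conduct best near the resting potential. Of 15 such genes 8 were members, with a family median log2 fold change of -0.52. Of the 8, 4 (Kcnj11, Kcnj12, Kcnj5 and Kcnj8) were lower at an unadjusted p under 0.05, against 8.01% of all genes tested. Kcnj11 and Kcnj8 encode Kir6.2 and Kir6.1, the pores of channels that open when ATP runs low. Kcnj11 (ENSMUSG00000096146, chr7:46093953-46100764, minus strand) was at 26.8, 28.5 and 28.0 FPKM in CharmeWT and 11.3 and 19.9 FPKM in CharmeKO pools. The CharmeWT pools were nearly equal while the CharmeKO pools differed. The log2 fold change was -0.83 (SE 0.237, adjusted p = 0.143, likelihood ratio test 0.0490). It ran from -1.30 without CharmeKO pool 2 to -0.48 without CharmeKO pool 1. Kcnj8 was at 15.4, 15.2 and 17.6 FPKM in CharmeWT and 7.87 and 13.7 FPKM in CharmeKO pools, again lowest in CharmeKO pool 1 (log2 fold change -0.57, SE 0.246, adjusted p = 0.256). It was -0.23 without CharmeKO pool 1 and -1.04 without CharmeKO pool 2.

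Each of these pore genes lies beside the gene of a sulfonylurea receptor, a regulatory subunit of such channels. Which receptor joins which pore in these hearts was not tested. Abcc8 (SUR1) lies 3758 bases from Kcnj11 on chromosome 7, and Abcc9 (SUR2) lies 16247 bases from Kcnj8 on chromosome 6. Abcc8 was at 5.12, 4.66 and 4.04 FPKM in CharmeWT and 4.31 and 3.95 FPKM in CharmeKO pools. Its groups overlapped (log2 fold change -0.16, SE 0.191, adjusted p = 0.674, and 0.17 with the length and GC correction). Abcc9 was at 31.3, 29.4 and 33.4 FPKM in CharmeWT and 26.9 and 16.2 FPKM in CharmeKO pools (log2 fold change -0.54, SE 0.227, adjusted p = 0.247). It was -0.96 without CharmeKO pool 1 and -0.23 without CharmeKO pool 2. Abcc9 was lowest in CharmeKO pool 2 and Kcnj8 in CharmeKO pool 1, so that the ratio of Abcc9 to Kcnj8 FPKM was 2.03, 1.94 and 1.90 in CharmeWT pools but 3.42 and 1.18 in CharmeKO pools 1 and 2.

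The resting current IK1 is carried by Kir2 pores. Kcnj12 (Kir2.2) was at 9.64, 9.06 and 9.68 FPKM in CharmeWT and 6.90 and 5.23 FPKM in CharmeKO pools, without overlap (log2 fold change -0.64, SE 0.212, adjusted p = 0.177, DESeq2 0.0910). Kcnj2 (Kir2.1) ranged from 3.76 to 7.71 FPKM among CharmeWT pools and was at 4.20 and 4.77 FPKM in CharmeKO pools, within the CharmeWT range. Its log2 fold change of -0.25 (SE 0.293) turned to 0.10 without CharmeWT pool 3 and to 0.11 with the replicate block. Kcnj4 (Kir2.3) was at 0.870 to 1.17 FPKM in CharmeWT pools, 2.24 in CharmeKO pool 1 and 0.771 in CharmeKO pool 2, so that its log2 fold change of 0.46 was -0.44 without CharmeKO pool 1.

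The acetylcholine-gated current of the atria and nodes needs Kcnj3 (Kir3.1) and Kcnj5 (Kir3.4) together. Kcnj5 was at 27.1, 20.8 and 29.99 FPKM in CharmeWT and 18.2 and 15.9 FPKM in CharmeKO pools, below every CharmeWT pool in both (log2 fold change -0.61, SE 0.202, adjusted p = 0.180, DESeq2 0.0912). Kcnj3 was at 3.59, 3.15 and 5.06 FPKM in CharmeWT and 3.93 and 4.98 FPKM in CharmeKO pools (log2 fold change 0.18, SE 0.250, adjusted p = 0.716). Its groups overlapped, and its sign turned with the length and GC correction (-0.05) and without CharmeKO pool 2 (-0.01). The summed level of 8 atrial marker genes was 1506, 1879 and 1945 CPM in CharmeWT pools and 2840 and 3835 CPM in CharmeKO pools, and 6 of the 7 tested were higher, 2 of them called. The part of this in the values of Kcnj3 and Kcnj5 was not tested.

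Among K2P subunits, which carry background current, 4 of 14 genes were members and none passed the test. Kcnk3 (TASK-1) was at 30.9, 29.1 and 29.4 FPKM in CharmeWT pools, 19.5 in CharmeKO pool 1 and 37.4 in CharmeKO pool 2. The CharmeKO pools lay on either side of the tightly grouped CharmeWT pools, and the log2 fold change was -0.07 (SE 0.250). It was 0.33 without CharmeKO pool 1, -0.62 without CharmeKO pool 2 and 0.10 with the length and GC correction. Kcnk2 (TREK-1) was at 0.635 to 1.63 FPKM in CharmeWT and 0.487 and 0.608 FPKM in CharmeKO pools (log2 fold change -0.83, SE 0.449, adjusted p = 0.346, and -0.28 without CharmeWT pool 2). Kcnk6 was at 1.02 to 1.97 FPKM and overlapped throughout (log2 fold change 0.03, SE 0.327, and -0.17 without CharmeWT pool 1, -0.03 without CharmeWT pool 2 and -0.08 without CharmeKO pool 2).

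The small-conductance calcium-activated channels SK1 to SK3 are encoded by Kcnn1, Kcnn2 and Kcnn3. For all 3 genes both CharmeKO pools lay below every CharmeWT pool, as they did for 18.2% of all genes tested. Kcnn1 was at 3.37, 2.52 and 2.90 FPKM in CharmeWT and 2.12 and 1.62 FPKM in CharmeKO pools (log2 fold change -0.66, SE 0.255, adjusted p = 0.225). Kcnn2 was at 2.07, 2.54 and 2.57 FPKM against 1.67 and 2.07 FPKM (log2 fold change -0.35, SE 0.227, adjusted p = 0.419), with 1 CharmeKO pool almost level with the lowest CharmeWT pool. Kcnn3 was at 0.511, 0.601 and 0.779 FPKM against 0.461 and 0.313 FPKM (log2 fold change -0.72, SE 0.321, adjusted p = 0.266). None of the 3 passed the test. After correction for length and GC content Kcnn1 was at -0.37 (adjusted p = 0.542) and Kcnn2 at -0.20, Kcnn2 was also at -0.21 without CharmeKO pool 1, and Kcnn3 was at -0.46 without CharmeKO pool 2.

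Kcnn4, the intermediate-conductance calcium-activated channel, behaved otherwise. It had 13, 12 and 14 counts in CharmeWT pools, 14 in CharmeKO pool 1 and 546 in CharmeKO pool 2. Its FPKM was 0.123 to 0.138 in CharmeWT pools, 0.194 in CharmeKO pool 1 and 4.785 in CharmeKO pool 2. The FPKM minimum of the call was thus met only through CharmeKO pool 2. The call (log2 fold change 4.27, SE 0.944, adjusted p = 0.0772) rests on CharmeKO pool 2, and without that pool the log2 fold change was 0.55 (adjusted p = 0.532). It was also lost without CharmeWT pool 1 (0.228), pool 2 (0.138) or pool 3 (0.341) and in the robust form of the test (0.227). CharmeKO pool 2 is the pool with 25570 CPM on salivary gland genes, and Kcnn4 and Kcnma1 (the BK pore) are known as the potassium channels of salivary acinar cells. Kcnma1 did not meet the count rule, with 1, 7 and 2 counts in CharmeWT pools, 3 in CharmeKO pool 1 and 52 in CharmeKO pool 2. Kcnk1, also below the rule, had 2, 4 and 1 counts in CharmeWT pools, 7 in CharmeKO pool 1 and 149 in CharmeKO pool 2. The member Kcnk5 had 25, 25 and 15 counts in CharmeWT pools, 17 in CharmeKO pool 1 and 74 in CharmeKO pool 2 (log2 fold change 1.07, adjusted p = 0.273). Kcnma1, Kcnk1 and Kcnk5 were chosen for mention after their values were seen. All 4 genes were thus high in the pool with the most salivary gland RNA, and the part of that RNA in their values was not tested.

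**Figure D3:**
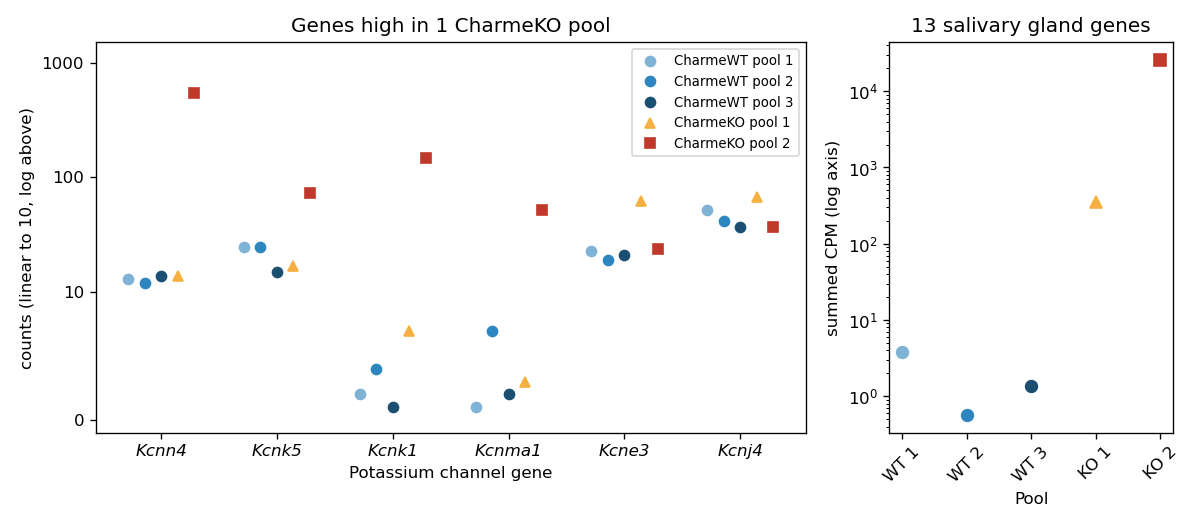
Left, counts (linear up to 10, log above) of 6 potassium channel genes that were highest in 1 CharmeKO pool, by pool, and right, summed CPM (log axis) of 13 salivary gland genes by pool. Kcnn4, Kcnk5, Kcnk1 and Kcnma1 are high in CharmeKO pool 2, where the salivary gland genes reach 25570 CPM, while Kcne3 and Kcnj4 are highest in CharmeKO pool 1.

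Auxiliary subunits as a family showed no common direction. Of 12 members 5 were lower and 7 higher, with a median log2 fold change of 0.07. Kcne3 had 23, 19 and 21 counts in CharmeWT pools, 63 in CharmeKO pool 1 and 24 in CharmeKO pool 2. Its log2 fold change of 1.26 (SE 0.558, adjusted p = 0.264) came from CharmeKO pool 1. It was -0.01 without that pool and 2.03 without CharmeKO pool 2. Kcne1l (KCNE5) at 2.83 to 3.60 FPKM and Kcne4 at 1.09 to 1.63 FPKM had log2 fold changes of 0.21 and 0.19, the latter turning to -0.08 with the replicate block and the length and GC correction together. Kcnmb1, a BK subunit of smooth muscle, was at 0.278 to 0.371 FPKM (log2 fold change -0.11, and 0.07 without CharmeKO pool 2).

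The CharmeKO pools were also compared with the CharmeWT mean separately, on the log2(CPM + 0.5) scale. The median over the 44 members was -0.382 in CharmeKO pool 1 and -0.213 in CharmeKO pool 2, against -0.017 to 0.031 in the CharmeWT pools and 0.006 over all genes tested in either CharmeKO pool. Of the 44 members 25, 21 and 18 lay below the CharmeWT mean in CharmeWT pools 1 to 3. The share of all genes tested below it in each pool is not given here. In each CharmeKO pool 29 members lay below the CharmeWT mean, 22 of them the same genes. A further 8 members lay above it in both pools, and 14 lay on opposite sides. Kcnq1 (-0.66 and -0.63) and Kcnj5 (-0.49 and -0.69) were lower by like amounts in both pools, while Kcnj11 (-1.28 and -0.48), Kcnj8 (-1.01 and -0.23) and Kcnh2 (-1.01 and -0.45) were lower in pool 1 than in pool 2.

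**Figure D4:**
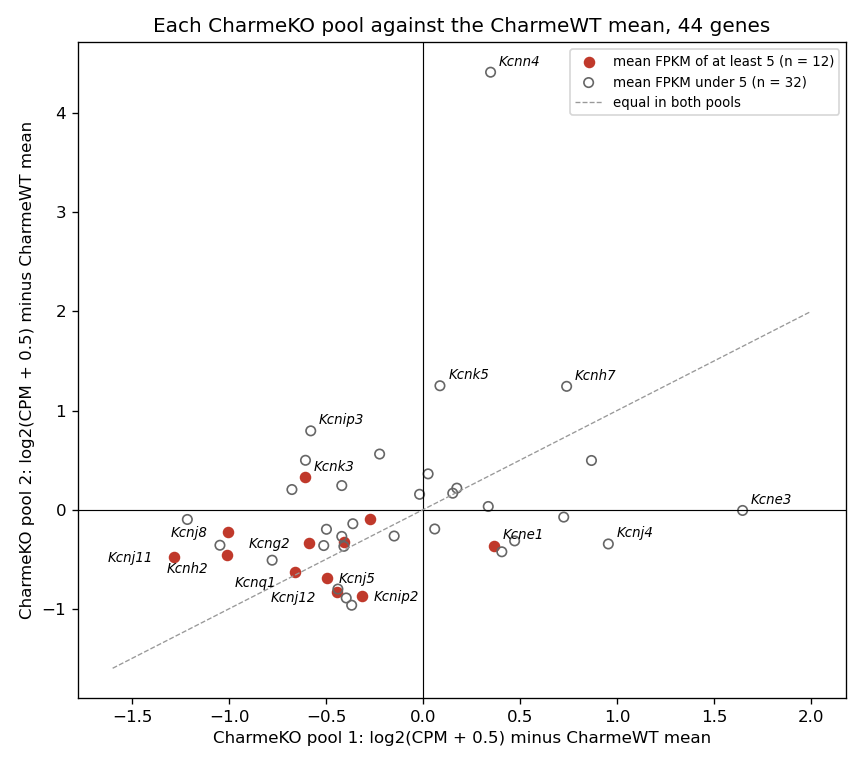
Difference from the CharmeWT mean of log2(CPM + 0.5) in CharmeKO pool 1 (horizontal axis) and CharmeKO pool 2 (vertical axis) for the 44 potassium channel genes, with filled points for the 12 at a mean FPKM of at least 5. Of the filled points 10 lie below 0 on both axes, while Kcne1 and Kcnk3 lie on opposite sides in the 2 pools, and Kcnn4 stands at 4.41 in pool 2.

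Promoter sequence was available in RefSeq (GRCm38.p6) for 34 members, among them 7 of the 10 lower at an unadjusted p under 0.05, and is printed for Kcnh2, Kcnj8 and Kcnj5 because both CharmeKO pools lay below every CharmeWT pool for these 3 abundant genes, which encode pores of different currents, although none was called. Each stretch is the 250 bases before the RefSeq start, 5′ to 3′ on the strand of the gene, in lower case with matches to the GC box in capitals. That of Kcnh2 (chr5:24329592-24329841, minus strand) starts a shorter transcript 22013 bases inside the GENCODE gene, that of Kcnj8 is chr6:142571615-142571864 (minus strand) and that of Kcnj5 is chr9:32344345-32344594 (minus strand).
Kcnh2: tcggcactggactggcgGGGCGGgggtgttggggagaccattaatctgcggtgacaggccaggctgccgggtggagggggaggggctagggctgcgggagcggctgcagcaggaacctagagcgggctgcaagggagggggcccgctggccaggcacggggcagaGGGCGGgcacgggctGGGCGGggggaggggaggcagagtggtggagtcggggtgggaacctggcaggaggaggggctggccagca
Kcnj8: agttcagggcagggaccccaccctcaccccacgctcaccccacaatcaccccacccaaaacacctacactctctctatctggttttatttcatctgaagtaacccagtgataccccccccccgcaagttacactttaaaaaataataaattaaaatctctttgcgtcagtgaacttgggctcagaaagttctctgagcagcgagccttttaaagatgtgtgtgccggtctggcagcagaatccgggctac
Kcnj5: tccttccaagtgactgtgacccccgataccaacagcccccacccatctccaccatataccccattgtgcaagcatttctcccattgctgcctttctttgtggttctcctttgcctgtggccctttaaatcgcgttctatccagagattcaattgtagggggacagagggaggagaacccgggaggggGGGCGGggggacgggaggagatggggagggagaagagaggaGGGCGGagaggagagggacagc
Kcnh2 holds 3 matches and Kcnj5 holds 2, while Kcnj8 holds none, and their GC contents are 73.6%, 58.0% and 49.2%. The GC box (GGGCGG), searched on both strands like the motifs that follow, occurred in 22 of the 34 members and in 32.7% of all 32851 RefSeq entries. A T-box core (GGTGTG) occurred in 12 of the 34 members and in 16.3% of entries, a GATA motif (AGATAA) in 1 member and 9.99% of entries, and a TATA box (TATAAA) in 0 members and 12.4% of entries. Of the 7 lower members with an entry 4 held the GC box, 1 (Kcnn1) the T-box core and 0 either of the others. A member with several entries counted once, as holding a motif if any of its entries did. The percentages are instead shares of single entries, 32851 for 27025 genes. The counts of members and the percentages are thus unlike measures, and a member with several entries had more windows in which to match. Matches are letters in these windows only.

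Genes that work with potassium channels were followed as a list of 23, of which 18 were tested. Irx3, a transcription factor that patterns cardiac potassium channel and conduction genes, fell, with 23.7, 28.0 and 34.5 FPKM in CharmeWT and 11.6 and 17.2 FPKM in CharmeKO pools (log2 fold change -0.99, SE 0.237, adjusted p = 0.0955). That call lay close to the threshold and was lost without CharmeWT pool 1 (0.185), pool 2 (0.183) or pool 3 (0.448) and without CharmeKO pool 1 (0.1004). With Irx3, Amigo1, Abcc9 and Hcn2 made 4 of the 18 (22.2%) lower at an unadjusted p under 0.05, against 8.01% of all genes tested, and no gene of the list was higher at that level. The log2 fold change was below 0 for 14 of the 18 (77.8%), against 48.2% of all genes tested, with a median of -0.24. The list was drawn up with earlier results of these data known, so that these shares describe it and cannot be read as an enrichment. Hcn2, a pacemaker channel, was at 1.93, 2.04 and 1.84 FPKM in CharmeWT and 0.621 and 1.36 FPKM in CharmeKO pools. Its log2 fold change was -0.92 (SE 0.351, adjusted p = 0.217), from -1.64 without CharmeKO pool 2 to -0.50 without CharmeKO pool 1.

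Of the 49 channel genes below the count rule, 11 had 0 counts in every pool and 38 had at least 1 count. Among members 39 had 10 counts in all 5 pools, and Kcne2 and Kcnh1 were nearest to the rule, with 10 counts in 3 pools each. Just outside it lay 6 genes with 10 counts in 1 pool, namely Kcna2, Kcnh3, Kcnj14, Kcns1, Kcnma1 and Kcnk1. No member reached 10 counts in the pools of 1 genotype alone.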

How the data were processed

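PolyA RNA of pooled mouse hearts was sequenced in 5 stranded libraries. The authors used cutadapt on paired-end reads of 150 nucleotides, with a minimum of 35 nucleotides after trimming, and STAR for alignment to GRCm38 (mm10), and the deposited counts are raw whole numbers of fragments for the genes of Ensembl release 87. A deposited table of FPKM values with decimal commas was not used. FPKM and CPM were computed here from the counts with TMM factors and exon lengths of GENCODE M21, to which 49411 of 49671 genes matched. The 23 tested genes without a length were given 1 kb.

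Genes that reached 10 counts in 2 or more pools were tested with edgeR 4.0.16 (R 4.3.3, quasi-likelihood test of genotype over 3 CharmeWT and 2 CharmeKO pools), with Benjamini-Hochberg adjustment over all 14880 genes. The SE of a log2 fold change was taken as its absolute value divided by the root of F. The exact permutation test could not go below p = 0.1 with these pools. Reads carry no molecular identifiers.

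The members, families, lists and tests were chosen with earlier results of these data known. 1 gene that met the rule is not reported here. Named were members at an unadjusted p under 0.05, the 20 most abundant, the most abundant of each family, those with a known cardiac current, list genes at an unadjusted p under 0.05, Abcc8 and Abcc9. Alternatives were the likelihood ratio test, DESeq2 1.42.0, legacy and robust forms, other normalizations, filters and thresholds, the replicate number as a block, a correction for length and GC content (splines of 4 degrees of freedom), leaving out mitochondrial and salivary gland genes, and leaving out each pool. Marker lists were summed as CPM.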

Additional observations from a re-analysis of the deposited data

How the results depend on the processing

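The number of members called lower was 0 in the reported test (10 at an unadjusted p under 0.05), 3 by the likelihood ratio test, 5 by DESeq2, 1 with the length and GC correction, and 0 to 6 with a pool left out. The number called higher was 1 in the reported test, 0 in the robust form and at an adjusted p under 0.05, and 0 to 2 with a pool left out. The number lower at an unadjusted p under 0.05 ran from 5 to 10 and the number higher from 1 to 4 with a pool left out, the length and GC correction gave 7 lower, and upper-quartile normalization gave 5 higher. For the counts at an unadjusted p with a pool left out, the shares over all genes are not given here, so that they have no background. The median log2 fold change of the members stayed negative under every alternative run and ran from -0.46 to -0.22 with a pool left out. Of the channel partner genes 1 was called. This was 2 in DESeq2 and in the likelihood ratio test, and 0 in the legacy and robust forms, without a filter on low counts, at an adjusted p under 0.05 and with upper-quartile normalization, and 0 to 4 with a pool left out.

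The replicate numbers do not say which pools share a litter, and the deviations of the pools correlated at 0.137 for number 1 and 0.0778 for number 2. CharmeWT pool 3 and CharmeKO pool 2, of unlike number, correlated at 0.0587. With 2 CharmeKO pools the deviations of 1 mirror those of the other, so that these values are not independent. With the replicate number as a block 0 members were called lower and 1 higher and 0 partner genes were called, and with the block and the length and GC correction together these were 0, 1 and 0. Under the block the log2 fold change was -0.14 for Kcnd2, -0.11 for Kcne1 and 0.11 for Kcnj2, and with both together -0.38 for Kcnd2, -0.040 for Kcne1, -0.082 for Kcne4, 0.078 for Kcnk3 and 0.037 for Abcc8, each with the sign opposite to that reported. The length and GC correction alone turned Abcc8 (0.17), Kcnd2 (-0.17), Kcne4 (-0.0005), Kcnj3 (-0.048) and Kcnk3 (0.10), and no filter on low counts turned Kcne1 (-0.0044). The causes were not tested.

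With a pool left out the sign turned for 10 of the named members, whose log2 fold change ran from -0.11 to 0.76 for Kcna4, -0.38 to 0.47 for Kcnd2, -0.38 to 0.34 for Kcne1, -0.012 to 2.03 for Kcne3, -0.45 to 0.10 for Kcnj2, -0.012 to 0.40 for Kcnj3, -0.44 to 1.08 for Kcnj4, -0.62 to 0.33 for Kcnk3, -0.17 to 0.33 for Kcnk6 and -0.28 to 0.066 for Kcnmb1. None of these genes was called in the reported test. With 1 CharmeKO pool left, that pool is assumed to vary like the CharmeWT pools.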
